A study of Mus musculus with 13 samples.

Results

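The 5 genes described here encode the intermediate filaments of peripheral neurons: *Nefl*, *Nefm* and *Nefh*, the light, medium and heavy neurofilament subunits, *Ina* (alpha-internexin) and *Prph* (peripherin). They were chosen by name, not by their values, as 5 of the 50508 genes listed in the UMI count files, of which 27777 had at least 1 UMI (unique molecular identifier, 1 counted transcript) in the neurons used. The reporters were chosen to mark proprioceptors, the sensory neurons of the dorsal root ganglion that innervate muscle spindles and tendon organs, and the neurons were sorted singly into plates of 96 wells by Plate-seq. The adult (at least postnatal day 56), p12 and p0 plates held tdTomato-positive neurons of *PV:Cre+/-;Rx3:Flp+/-;Ai65+/-* mice (*PVRx3:tdT*), in which both recombinases must have been expressed for the reporter to appear, and the e14.5 plates held neurons of *TrkC:tdTomato* embryos, labelled by 1 gene. Between p0 and e14.5, reporter and stage therefore cannot be told apart. The annotation keeps 586 neurons (208 of 5 adult plates, 154 of 4 p12 plates, 55 of 2 p0 plates and 169 of 2 e14.5 plates), and gives each a cluster made by the authors within its stage, apart from 42 adult neurons without a numbered cluster. By the study's description these 42 belonged to classes other than proprioceptors or to small clusters, and e14.5 clusters 3 and 4 are likewise taken as other *TrkC* neurons. All of them enter the stage values. The mice, of either sex, numbered 6 for the adult, 4 for p12, 6 for p0 and 2 for e14.5. Adult neurons were collected in 3 experiments. Which animals and experiments contributed to which plate is not stated. The plates therefore served as replicates, although some may share animals or an experiment, and the p-values measure only the spread between plates.

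Neurofilaments are heteropolymers that fill the axoplasm and set the calibre of large myelinated axons. NF-L forms the core of the polymer, NF-M and NF-H carry long, heavily phosphorylated tails that space the filaments, alpha-internexin is the early partner of developing neurons, and peripherin is the intermediate filament typical of peripheral neurons. Proprioceptors have large somata and thick, fast axons, and neurofilament protein is a common marker of such neurons in the ganglion.

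In GRCm38.p6 (RefSeq), *Nefl* lies on chromosome 14 between 68083863 and 68089095 on the plus strand and *Nefm* on the same chromosome between 68119545 and 68125004 on the minus strand, with 30449 bases between them. *Nefh* occupies bases 4938754 to 4948064 of chromosome 11 (minus strand). *Prph* lies between 99053579 and 99058978 on chromosome 15, and *Ina* between 47014681 and 47025327 on chromosome 19, both on the plus strand. One GENCODE transcript of *Nefm* reaches across *Nefl* on the opposite strand, which the RefSeq genes do not. How the counting treated strand is not given in the sources used here, so reads of such a transcript and of *Nefl* could not be told apart.

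RefSeq promoter windows were at hand for *Ina* and *Prph*, both of which fell between p12 and the adult, and are shown for that reason. Each runs from 250 bases before to 50 bases after the transcript start, at chr19:47014431-47014730 and chr15:99054924-99055223, 5′ to 3′ on the plus strand. The *Prph* window begins inside the RefSeq gene record, at the start shared with GENCODE. Capitals mark matches to the motifs searched, on either strand.
Ina: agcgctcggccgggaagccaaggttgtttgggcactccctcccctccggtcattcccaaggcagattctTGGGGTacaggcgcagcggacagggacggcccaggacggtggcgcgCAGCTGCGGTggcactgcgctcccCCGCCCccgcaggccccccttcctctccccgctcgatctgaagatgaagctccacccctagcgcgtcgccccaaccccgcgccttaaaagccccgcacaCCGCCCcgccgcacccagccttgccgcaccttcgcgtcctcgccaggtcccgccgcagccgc
Prph: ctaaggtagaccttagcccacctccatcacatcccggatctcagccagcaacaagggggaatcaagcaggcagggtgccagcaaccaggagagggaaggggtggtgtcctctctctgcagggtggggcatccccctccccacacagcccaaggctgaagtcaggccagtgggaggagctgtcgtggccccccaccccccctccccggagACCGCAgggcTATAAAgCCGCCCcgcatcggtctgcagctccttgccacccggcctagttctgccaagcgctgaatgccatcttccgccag
The *Ina* window was 71.7% G and C and the *Prph* window 64.7%, against a median of 52.7% over 32851 promoter windows. *Prph* held TATAAA at -31 from its start, as did 13.6% of all windows, and *Ina* held none. GGGCGG was found at -111 and -12 in *Ina* and at -24 in *Prph*, and in 35.7% of all windows. The Runx motif TGNGGT occurred at -181 and -131 in *Ina* and at -41 in *Prph*, and in 45.8% of windows, while the E-box CAGCTG (16.3% of windows) occurred once, in *Ina* at -135, where it overlaps the later Runx match. Neither window held the CCAAT box (37.4% of windows), the Ets motif CAGGAAGT (3.33%), the AP-1 motif TGANTCA (7.81%) or the cyclic AMP response element TGACGTCA (1.79%).

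Levels are given in CPM, a gene's UMIs scaled to the total UMIs of the neuron (counts per 1000000). Each plate's value is the mean of its neurons, and stage and cluster values are means of plates with their SD. Mean depth was 11174 UMIs per neuron for e14.5, 41594 for p0, 30623 for p12 and 44511 for the adult, and the kept neurons of a plate held between 680212 and 2387288 UMIs. All 7 proprioceptor markers (among them *Pvalb*, *Runx3* and *Ntrk3*) were detected at every stage, with summed levels per plate of 1797 to 1806 CPM at e14.5 and 3797 to 5238 CPM later. The summed markers of other sensory neurons of the ganglion stayed at or below 53.7 CPM, and *Scn10a* was at 0 in e14.5, p0 and adult neurons. Satellite glia and Schwann cell markers summed to 85.5 to 105 CPM per plate at e14.5, 563 to 672 at p0, 224 to 614 at p12 and 326 to 877 in the adult. Genes of the nerve injury response (5 of 6 detected, *Sprr1a* at 0) summed to 1460 to 1589 CPM at e14.5 and 96.7 to 232 CPM later. Most of the e14.5 sum was *Sox11* (1185 CPM) and *Gal* (250 CPM). *Atf3*, *Jun* and *Gadd45a* were lower at e14.5 (7.88, 78.6 and 3.14 CPM) than in the adult (42.6, 101 and 34.8 CPM). The part of the glial and injury genes in the levels was not tested. Together, the 5 genes made up 0.693% of the UMIs of a neuron at e14.5, 1.19% at p0, 1.73% at p12 and 1.60% in the adult.

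Across stages, *Nefh* rose most, *Nefl* rose between e14.5 and p0, and *Ina* and *Prph* fell between p12 and the adult. The levels of *Nefm* did not change past the test between any adjacent stages. Of all 11939 genes tested, 14.1% were called between adult and p12, 18.1% between p12 and p0, and 27.8% between p0 and e14.5, so that the 2, 1 and 2 members called in these comparisons stand beside a large general change.

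*Nefh*, the subunit of mature, myelinated axons, was at 35.3 and 43.6 CPM on the e14.5 plates, 686 and 778 CPM at p0, 3945, 3693, 2337 and 1836 CPM at p12 (replicates 1 to 4), and 4764, 4545, 4155, 4510 and 3087 CPM in the adult. The e14.5, p0 and p12 plates did not overlap with each other, while p12 and adult plates did. The log2 fold change was 4.25 (SE 0.34, adjusted p = 2.08e-06) from e14.5 to p0 and 2.14 (SE 0.27, adjusted p = 0.000114) from p0 to p12, and 0.54 (SE 0.19) from p12 to the adult, which did not pass (adjusted p = 0.0702). At e14.5, 59 of 169 neurons (34.9%) had a *Nefh* UMI, against every neuron at the later stages. With each neuron thinned to 7000 UMIs, which left 566 neurons, 34 of 151 e14.5 neurons (22.5%) had one.

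*Nefl* was at 1571 and 1535 CPM at e14.5, 4616 and 4936 CPM at p0, 8737, 7294, 3425 and 2909 CPM at p12, and 5234, 5552, 4659, 5202 and 4035 CPM in the adult. The 4 p12 plates fell on either side of the p0 and adult plates. *Nefl* rose from e14.5 to p0 (log2 1.67, SE 0.35, adjusted p = 0.00318), and its later differences were 0.38 (p12 against p0, adjusted p = 0.409) and -0.09 (adult against p12, adjusted p = 0.838).

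*Nefm* was at 3371 and 3650 CPM at e14.5 and 4484 and 5037 CPM at p0. At p12 it was at 9525, 8758, 5511 and 4634 CPM, and in the adult at 6319, 7133, 5240, 6003 and 4551 CPM. The differences were 0.49 (p0 against e14.5, adjusted p = 0.209), 0.72 (p12 against p0, adjusted p = 0.0599) and -0.27 (adult against p12, adjusted p = 0.359) on the log2 scale. Both e14.5 plates lay below every later plate.

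*Ina* was at 510 and 532 CPM at e14.5, 339 and 408 CPM at p0, 477, 439, 424 and 399 CPM at p12, and 251, 225, 201, 149 and 224 CPM in the adult. Every adult plate lay below every other plate. It fell by 1.41 on the log2 scale (SE 0.15, adjusted p = 7.36e-05) between p12 and the adult, and 157 of 208 adult neurons (75.5%) had an *Ina* UMI against 151 of 154 at p12 (98.1%). After thinning to equal depth the shares were 58.2% and 91.4%. Between p0 and e14.5 the difference was -0.40 (adjusted p = 0.209), and in thinned neurons it was -0.95 and passed (adjusted p = 0.0138).

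*Prph* was at 1386 and 1222 CPM at e14.5, 1286 and 1280 CPM at p0, 1464, 1161, 1061 and 1057 CPM at p12, and between 733 and 989 CPM on the 5 adult plates. Again all adult plates lay below all others. *Prph* fell by 0.56 on the log2 scale (SE 0.13, adjusted p = 0.0130) between p12 and the adult and differed by -0.07 and -0.06 across the earlier steps (adjusted p = 0.830 and 0.871).

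**Figure D1:**
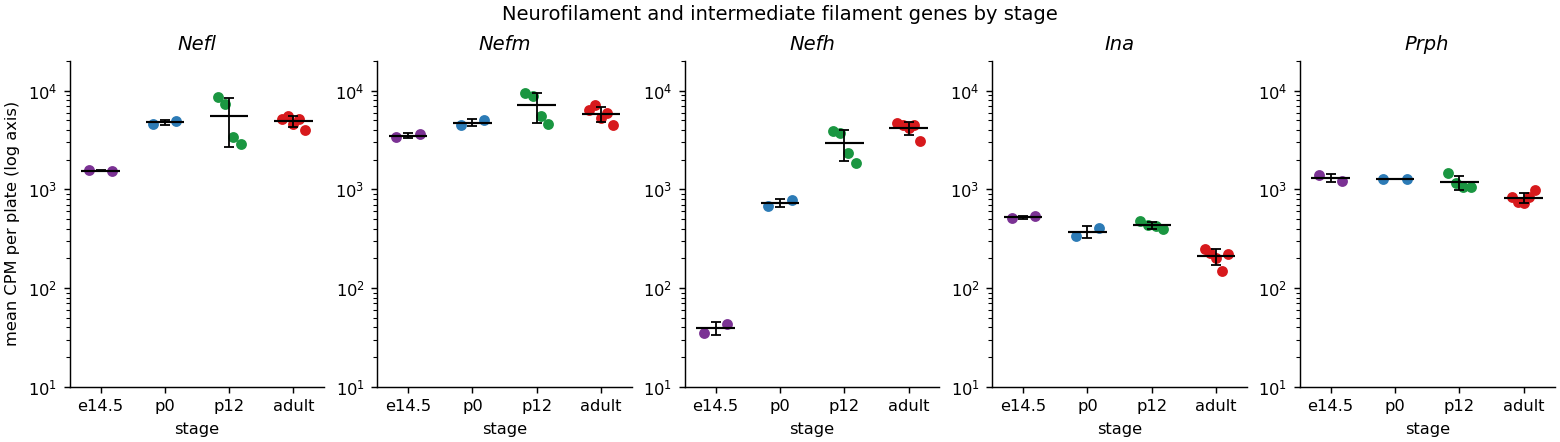
Mean CPM of each gene over the kept neurons of a plate (points, log axis) at e14.5 (2 plates), p0 (2), p12 (4) and adult (5), with the mean (wide bar) and SD over plates. Nefh climbs from 39.4 to 4212 CPM, while Ina and Prph are lowest in the adult and the p12 plates are widely spread for Nefl, Nefm and Nefh.

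The p12 plates were not alike. Replicates 1 and 2 held 25 kept neurons, all of p12 clusters 2 and 3, at a mean depth of 58488 UMIs, and replicates 3 and 4 held 129 neurons, all of clusters 1, 4 and 5, at 25223 UMIs. Plate, depth and cluster thus cannot be told apart. Mean levels on the first and second pair of plates were 8015 and 3167 CPM for *Nefl*, 9141 and 5072 CPM for *Nefm*, 3819 and 2087 CPM for *Nefh*, 458 and 411 CPM for *Ina*, and 1313 and 1059 CPM for *Prph*. The comparisons of *Nefl* with both neighbouring stages, of *Nefh* with the adult and of *Nefm* with p0 depended on the pair used. So did the share of all genes called, which was 4.92% between the adult and the first pair, 25.9% between the adult and the second, and 19.6% and 22.9% between these pairs and p0. Against p12 replicates 1 and 2 alone, adult *Nefl* differed by -0.51 (adjusted p = 0.0898) and *Nefh* by 0.29 (adjusted p = 0.411), whereas against replicates 3 and 4 alone *Nefl* was higher by 0.50 (adjusted p = 0.0455) and *Nefh* by 0.85 (adjusted p = 0.00876). Relative to p0, *Nefl* at p12 was higher by 0.80 (adjusted p = 0.0127) with the first pair and differed by -0.20 (adjusted p = 0.509) with the second, and *Nefm* was higher by 0.99 (adjusted p = 0.00758) or differed by 0.41 (adjusted p = 0.322). The fall of adult *Ina* (-1.27 and -1.53) and *Prph* (-0.61 and -0.52) and the rise of *Nefh* from p0 to p12 (2.40 and 1.84) passed with either pair.

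Ratios between subunits within a plate need no scaling between plates, and their differences between stages do not depend on the lengths of the transcripts. The ratio of *Nefh* to *Nefm*, the pair of subunits with long phosphorylated tails, separated the plates of all 4 stages. Its log2 value was -6.43 and -6.42 on the e14.5 plates, -2.66 on both p0 plates, between -1.29 and -1.19 on the 4 p12 plates, and between -0.57 and -0.34 on the 5 adult plates. The plates of the stages did not overlap, and the 2 pairs of p12 plates, which differed so widely in level, differed little in this ratio. The p12 clusters did differ, with means of -1.48, -1.08, -1.52, -1.29 and -0.84 in clusters 1 to 5. Cluster 5, at -0.85 and -0.84, lay within the range of adult neurons without a numbered cluster (-1.02 to -0.60). Means of the numbered adult clusters lay between -0.69 and -0.30. Stage means were -6.42 ± 0.0074, -2.66 ± 0.0020, -1.25 ± 0.04 and -0.43 ± 0.10 (SD). The e14.5 values rest on 38 and 40 *Nefh* UMIs, so the small SD of 2 plates there does not measure precision. The exact permutation test over the 13 plates gave p = 3.7e-06 (adjusted over 5 ratios, p = 9.25e-06). Between p12 and the adult, the ratio was higher by 0.81 (exact permutation p = 0.00794, the smallest that 126 arrangements allow, adjusted p = 0.0198).

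*Nefh* over *Nefl* moved alike, from -5.23 ± 0.14 at e14.5 through -2.65 ± 0.05 and -0.83 ± 0.26 to -0.27 ± 0.10 in the adult (all stages, exact permutation p = 3.7e-06). The adult plates exceeded the p12 plates by 0.56 (exact p = 0.00794, adjusted p = 0.0198). *Nefm* over *Nefl* was highest at e14.5 (1.19 ± 0.15) and was 0.01 ± 0.05 at p0, 0.41 ± 0.25 at p12 and 0.17 ± 0.05 in the adult (all stages, exact permutation p = 0.000633). At p12 its plates were split, with 0.13 and 0.27 on replicates 1 and 2 and 0.64 and 0.62 on replicates 3 and 4.

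The ratio of *Ina* to *Nefl* fell from -1.61 ± 0.04 at e14.5 to -3.68 ± 0.10 at p0, -3.77 ± 0.74 at p12 and -5.17 ± 0.40 in the adult (all stages, exact permutation p = 0.000296). The adult mean was lower than the p12 mean by 1.40 (log2 difference -1.40, exact permutation p = 0.0159, adjusted p = 0.0265). *Prph* over *Nefl* was -0.25 ± 0.13, -1.97 ± 0.08, -2.34 ± 0.56 and -2.89 ± 0.39 (all stages, exact permutation p = 0.0018), and its adult and p12 plates overlapped (difference -0.55, exact p = 0.127). For adjacent stages with fewer plates the test could not pass, since the smallest p was 0.0667 between p12 and p0 and 0.333 between p0 and e14.5.

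**Figure D2:**
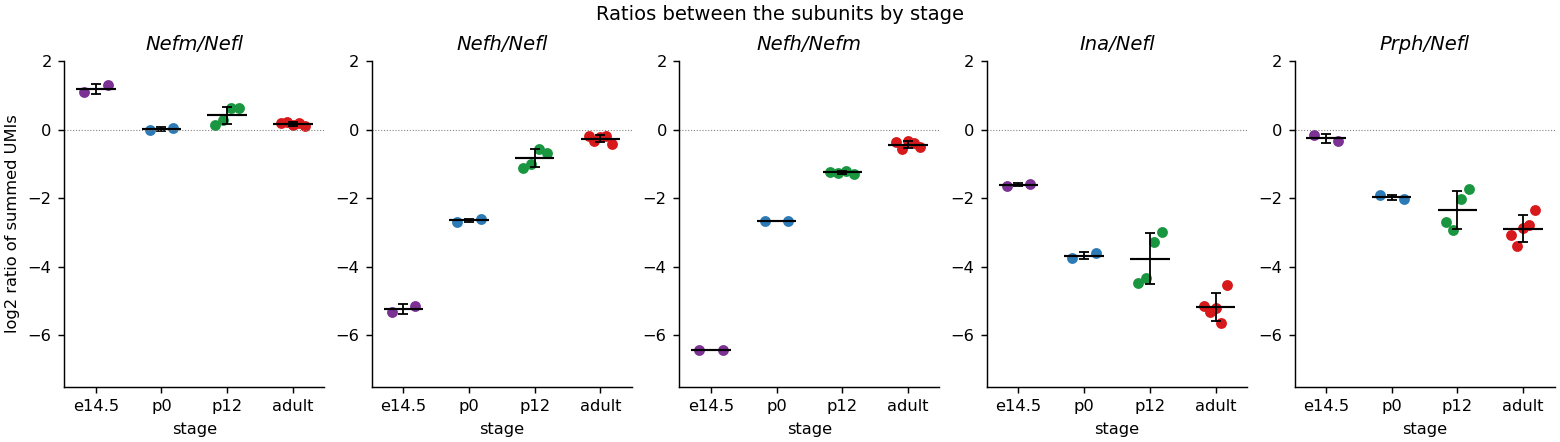
Log2 ratio of the summed UMIs of 2 genes on each plate (points) by stage, with the mean and SD over plates (bars) and 0 marked by a dotted line. Nefh over Nefm separates the 4 stages without overlap, whereas the p12 plates split for the ratios to Nefl.

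In the adult, the 5 numbered clusters differed in all 3 neurofilament subunits and in *Ina*. Cluster 1 is taken as group Ia spindle afferents, cluster 5 as group Ib tendon organ afferents, and clusters 2 to 4 as presumptive group II spindle afferents. The clusters were made from the same neurons, and a test between them says only how far the plates repeat a difference. There were 51 neurons of cluster 1 and 31 of cluster 5, both on all 5 plates, and 41 of cluster 3, on 4 plates with at least 2 each. Clusters 2 (15 neurons) and 4 (28 neurons) came from replicates 1 and 2 alone. Any difference across clusters was called for 9.67% of 7370 genes, and among the members for *Nefl* (adjusted p = 0.00226), *Nefm* (0.0380), *Nefh* (0.00501) and *Ina* (8.98e-06), while *Prph* did not pass (0.122). Without adult replicate 1, which left clusters 2 and 4 with 1 sum each, fewer members and a smaller share of all genes passed in this comparison.

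*Ina* separated cluster 1 from all other clusters. Its plate means in cluster 1 were 27.1, 31.8, 8.44, 12.3 and 29.0 CPM (replicates 1 to 5), from 77 UMIs in all, against 168, 125, 285, 188 and 218 CPM in cluster 5, 323 and 257 CPM in cluster 2, 386, 302, 231 and 332 CPM in cluster 3 (replicates 2 to 5), and 446 and 396 CPM in cluster 4. The plate means of cluster 1, 8.44 to 31.8 CPM, lay below those of cluster 5 and of clusters 2 to 4 without overlap. In cluster 1, 19 of 51 neurons (37.3%, exact 95% binomial interval 24.1% to 51.9%, counting error only) had an *Ina* UMI, at a mean depth of 61460 UMIs, the deepest of the adult clusters. In cluster 5 it was 26 of 31 (83.9%), and in cluster 4, at a mean depth of 21432 UMIs, 27 of 28 (96.4%). When neurons were thinned to 7000 UMIs, *Ina* was found in 5 of 51 in cluster 1, in 17 of 31 in cluster 5 and in 25 of 28 in cluster 4. Whether single UMIs in cluster 1 came from other wells of a plate was not tested. *Ina* was lower in cluster 1 than in cluster 5 by a log2 difference of -2.82 (SE 0.36, adjusted p = 2.58e-05), in a comparison that called 4.76% of genes.

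The neurofilament subunits ran the other way. *Nefl* was at 8225, 8499, 6799, 6288 and 6096 CPM in cluster 1, 7888, 7341, 4520, 6540 and 5677 CPM in cluster 5, 4458 and 4826 CPM in cluster 2, 6786, 3623, 3484 and 3487 CPM in cluster 3, and 2494 and 2498 CPM in cluster 4. Apart from cluster 3 on replicate 2, which rested on 2 neurons, and cluster 5 on replicate 3, the sums of clusters 1 and 5 exceeded those of clusters 2 to 4. *Nefh* averaged 6317 ± 941 CPM (SD) in cluster 1, 4995 ± 791 in cluster 5, 4315 ± 66.6 in cluster 2, 3816 ± 1033 in cluster 3 and 2611 ± 245 in cluster 4. *Nefm* averaged 8143 ± 1419, 6313 ± 1517, 7170 ± 322, 5414 ± 1798 and 4073 ± 192 CPM in the same order. *Prph* was lowest in cluster 1 and highest in cluster 4, with 569 ± 123 CPM in cluster 1, 756 ± 104 in cluster 5, 725 ± 65.6 in cluster 2, 796 ± 88.1 in cluster 3 and 947 ± 92.9 in cluster 4. Ordered by *Prph*, the plate values of each cluster overlapped with those of the next.

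**Figure D3:**
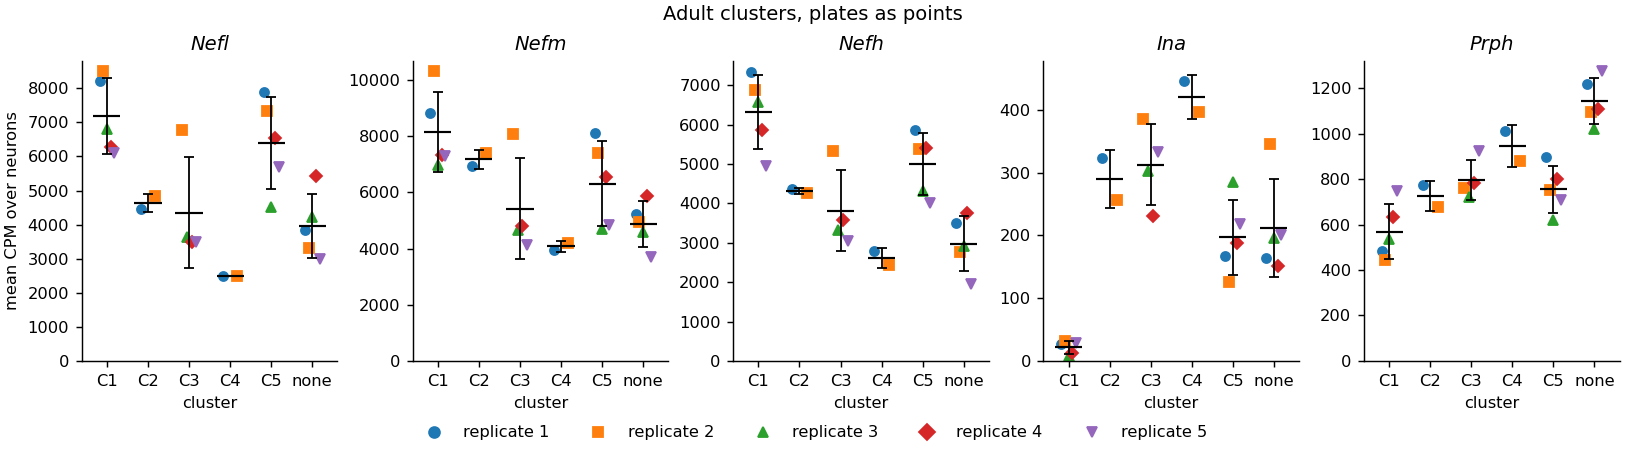
Mean CPM per plate (symbols mark replicates) of the 5 genes in adult clusters C1 to C5 and in neurons without a numbered cluster, with mean and SD over plates, on axes from 0. Ina in C1 lies at 8.44 to 31.8 CPM and at or above 125 CPM in C2 to C5, while Nefl and Nefh are highest in C1 and lowest in C4 among the numbered clusters.

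Clusters 1 and 5 together were compared with clusters 2 to 4, a comparison that called 5.63% of genes. *Nefl* was higher (log2 0.86, SE 0.14, adjusted p = 0.000728), as was *Nefh* (0.63, SE 0.12, adjusted p = 0.00330, and 0.0522 without adult replicate 1), and *Ina* was lower (-2.25, SE 0.25, adjusted p = 8.22e-06). *Nefm* (0.41, adjusted p = 0.0799) and *Prph* (-0.29, adjusted p = 0.194) did not pass. With the plate as a block, which called 10.6% of genes, all 5 passed, *Nefm* at 0.58 (adjusted p = 3.64e-08) and *Prph* at -0.36 (adjusted p = 0.00385). The block (9.66% of genes called) also brought *Nefm* (0.39, adjusted p = 0.000155), *Nefh* (0.34, 0.00179) and *Prph* (-0.41, 0.00581) past the threshold between clusters 1 and 5, where *Nefl* was at 0.21 (0.0950).

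Depth and marker levels also differed between these clusters. The mean depth was 61460 UMIs in cluster 1, 57451 in cluster 5, 39489 in cluster 3, 31017 in cluster 2 and 21432 in cluster 4, and the summed proprioceptor markers were at 6241, 4230, 4793, 4250 and 2748 CPM. Cluster 4 was lowest, and cluster 1 highest, in depth, in these markers and in the 3 subunits. For *Nefl* and *Nefh* the order of the clusters was that of depth apart from clusters 2 and 3, which changed places. The part of depth and of marker levels was not tested. The summed genes of the nerve injury response were at 321 CPM in cluster 4 (269 and 373 CPM on its 2 plates) and at means of 148 to 189 CPM in the other numbered clusters, and their part in the result was not tested. In neurons thinned to 7000 UMIs the contrast of clusters 1 and 5 with clusters 2 to 4 was 0.85 for *Nefl*, 0.72 for *Nefh* and -2.23 for *Ina*, all past the threshold.

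Cluster 4 lay below cluster 2 in *Nefl* (-0.88), *Nefm* (-0.80) and *Nefh* (-0.66), both clusters coming from replicates 1 and 2. No member passed in this comparison (adjusted p from 0.416 to 0.877), in which 0.136% of genes were called. The 3 subunits were under 0.05 without adjustment, and DESeq2 called none of the members. With the plate as a block (0.719% of genes called) they passed (-0.87, adjusted p = 0.000336, for *Nefl*, -0.79, 7.99e-05, for *Nefm*, and -0.66, 0.00314, for *Nefh*).

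Ratios between members were also compared between the same groups of clusters within plates, where 5 plates could not bring a ratio past the threshold. Over 5 adult plates, the log2 ratio of *Nefm* to *Nefl* was lower in clusters 1 and 5 than in clusters 2 to 4 by a difference of -0.34 ± 0.13 (SD, lower on 5 of 5 plates), that of *Ina* to *Nefl* by -2.78 ± 0.78 (5 of 5), and that of *Prph* to *Nefl* by -1.22 ± 0.48 (5 of 5). The exact sign-flip permutation p of each was 0.0625, the smallest that 5 plates allow (adjusted p = 0.0781). *Nefh* over *Nefm* was higher in clusters 1 and 5 by 0.17 ± 0.14 on 5 of 5 plates (exact p = 0.0625), and *Nefh* over *Nefl* differed by -0.17 ± 0.16 (lower on 4 of 5, exact p = 0.125). Between clusters 1 and 5, *Ina* over *Nefl* differed by -3.34 ± 1.74 (lower on 5 of 5 plates), and *Nefh* over *Nefm* by -0.05 ± 0.18 (exact p = 0.562).

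The adult plates fell into 2 sets that differed in the neurofilament genes within clusters 1 and 5. In replicates 1 and 2, *Nefl* was higher than in replicates 3 to 5 by 0.48 (SE 0.08, adjusted p = 0.000588), *Nefm* by 0.50 (SE 0.08, adjusted p = 0.000293) and *Nefh* by 0.34 (SE 0.08, adjusted p = 0.00838), in a comparison that called 20.1% of 6985 genes. *Ina* (0.64, adjusted p = 0.157) and *Prph* (-0.12, adjusted p = 0.530) did not pass. Clusters 2 and 4 lay only on replicates 1 and 2, and all but 2 of the counted neurons of cluster 3 on replicates 3 to 5, so a difference between cluster 3 and clusters 2 or 4 cannot be told apart from that between plates. Fitted on replicates 1 and 2 alone, *Ina* differed between clusters 1 and 5 by -1.81 (adjusted p = 0.00126), and on replicates 3 to 5 alone by -4.17 (adjusted p = 9.48e-07). The test of that difference gave 2.36 (SE 0.61, adjusted p = 0.975), and 0.0143% of genes were called.

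The 42 adult neurons without a numbered cluster had the highest *Prph*, at 1218, 1097, 1020, 1106 and 1278 CPM on replicates 1 to 5, above every plate mean of the numbered clusters. Their *Nefh* was at 2981 ± 707 CPM and their *Ina* at 212 ± 77.7 CPM (SD). Their summed proprioceptor markers were at 2991 CPM. They entered no cluster test.

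**Figure D4:**
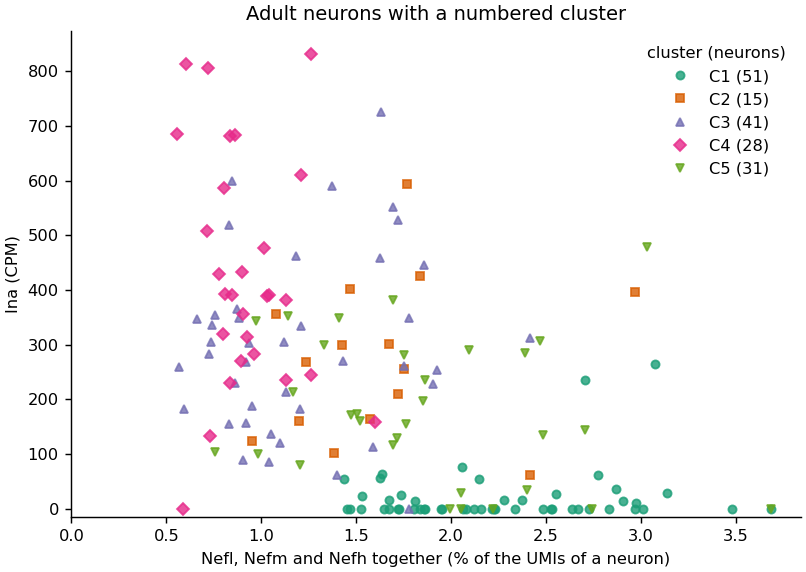
Each point is 1 adult neuron of a numbered cluster, with the share of its UMIs from Nefl, Nefm and Nefh (percent, horizontal) against its Ina level (CPM, vertical). Most C1 neurons lie at 0 CPM of Ina, where 19 of 51 had an Ina UMI, and at high neurofilament shares, while C4 neurons lie at low neurofilament shares with Ina.

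At p12 the clusters spanned a wider range of neurofilament levels than in the adult. *Nefl* was at 1900 and 2196 CPM in cluster 1 and 3547 and 4182 CPM in cluster 4 on replicates 3 and 4, which also held cluster 5 at 8226 and 5452 CPM. On replicates 1 and 2 it was at 11643 and 10205 CPM in cluster 2 and 6660 and 6421 CPM in cluster 3. *Nefh* averaged 1286 ± 46.9 CPM in cluster 1, 2544 ± 247 in cluster 4 and 5071 ± 1465 in cluster 5 on the one pair of plates, and 5925 ± 361 in cluster 2 and 2724 ± 531 in cluster 3 on the other. Cluster 2 stood above cluster 3, and cluster 5 above clusters 1 and 4, on each plate for *Nefl*, *Nefm* and *Nefh*. Mean depths were 16306 UMIs in cluster 1, 31618 in cluster 4, 49068 in cluster 5, 75889 in cluster 2 and 50299 in cluster 3, in the order of *Nefl* within each pair of plates.

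The 2 clusters of highest *Nefh*, 2 and 5, were also those with the highest summed markers of adult cluster 1 (*Calb1*, *Calb2*, *Hpse*, *Colq* and *Agpat4*), at 1651 and 583 CPM against 21.5 to 39.3 CPM in the other p12 clusters. Their *Ina* did not lie near 0 as in adult cluster 1. It was at 470 and 191 CPM in cluster 2 and 258 and 298 CPM in cluster 5, against 341 and 339 CPM in cluster 1, 483 and 513 CPM in cluster 3, and 496 and 537 CPM in cluster 4. Still, on replicates 2 to 4 it was lower than in that plate's other clusters. On replicate 1 the order turned with the scaling, since cluster 2 lay below cluster 3 in mean CPM but held 186 *Ina* UMIs of 408562 against 149 of 373417.

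**Figure D5:**
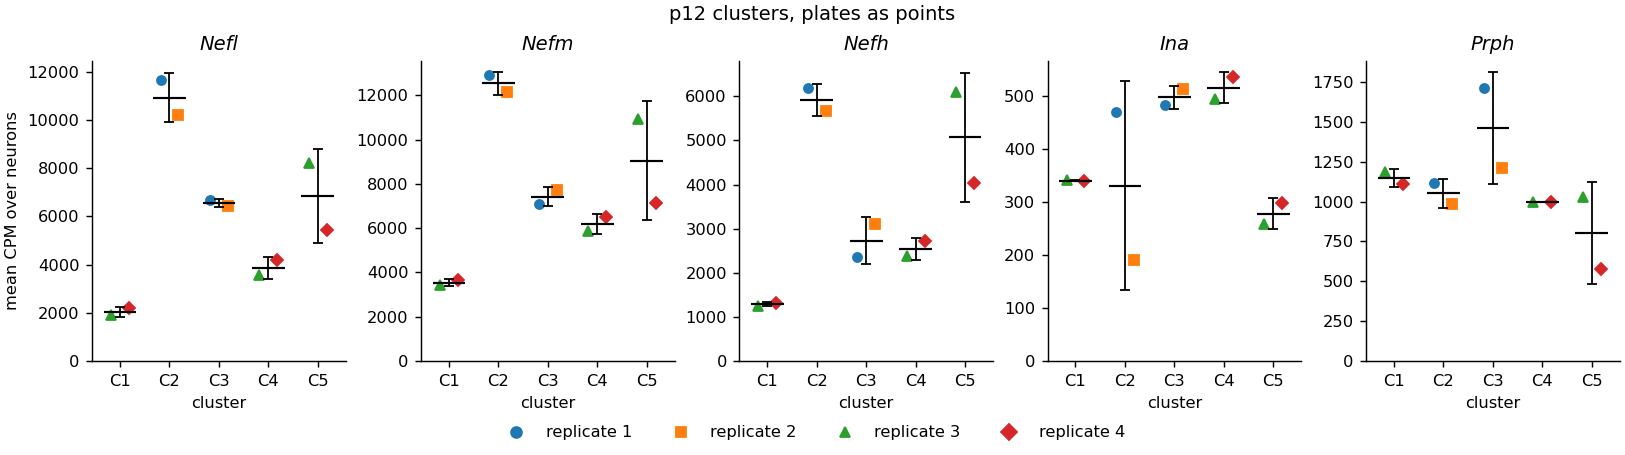
Mean CPM per plate (symbols mark replicates) of the 5 genes in p12 clusters C1 to C5, with mean and SD over 2 plates, on axes from 0. C2 and C3 come from replicates 1 and 2 and C1, C4 and C5 from replicates 3 and 4, and in each pair the cluster of highest Nefh (C2 at 5925 CPM, C5 at 5071 CPM) is also the highest in Nefl and Nefm.

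Any difference across p12 clusters was called for 31.5% of 6209 genes and for *Nefl* (adjusted p = 8.76e-10), *Nefm* (1.14e-07), *Nefh* (7.23e-09) and *Ina* (0.0152), not for *Prph* (0.0547). In thinned neurons *Ina* did not pass (0.167). Differences of clusters 2 and 3 from clusters 1, 4 and 5 cannot be told apart from those between the pairs of plates, whereas clusters of one pair were compared on shared plates. The comparison of clusters 1 and 4, both on replicates 3 and 4, called 0.966% of genes. Cluster 1 was lower in *Nefl* (-0.95, SE 0.15, adjusted p = 0.00120), *Nefm* (-0.83, SE 0.15, adjusted p = 0.00463) and *Nefh* (-1.03, SE 0.17, adjusted p = 0.00199). *Ina* (-0.55, adjusted p = 0.309) did not pass. It passed with the plate as a block (-0.57, adjusted p = 0.00335, 3.88% of genes called), without replicate 1 (-0.54, adjusted p = 0.0173) and without replicate 2 (-0.56, adjusted p = 0.0142), plates that hold neither cluster. *Prph* differed by 0.25 (adjusted p = 0.711). Without replicate 3 or without replicate 4, each cluster was left with 1 sum and none of the 3 subunits passed, with adjusted p between 0.0759 and 0.283 at nearly the same differences. Genes of the nerve injury response summed to 123 CPM in cluster 1 and 67.0 CPM in cluster 4, and their part was not tested.

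At p0, *Nefl* was higher in cluster 2 than in the other clusters. *Nefl* was at 5731 and 6481 CPM in cluster 2 (12 neurons, replicates 1 and 2), 4490 and 4453 CPM in cluster 1 (35 neurons) and 3299 and 4818 CPM in cluster 3 (8 neurons). The difference of cluster 2 from clusters 1 and 3 was 0.42 (SE 0.09, adjusted p = 0.0276), where 1.21% of 5061 genes were called, but DESeq2 gave 0.226. *Nefm* differed by 0.37 (adjusted p = 0.0859) and passed with the plate as a block (adjusted p = 0.00104, 1.38% of genes called). *Nefh*, *Ina* and *Prph* differed by -0.12, 0.08 and 0.01 (adjusted p from 0.793 to 0.992). Mean depth was 50379 UMIs in cluster 2, 41386 in cluster 1 and 29323 in cluster 3, in the order of *Nefl*. Glial markers summed to 3338 CPM in cluster 3 against 126 to 151 CPM in clusters 2 and 1. The part of depth and of glial markers in these values was not tested.

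At e14.5, no member was called between clusters, either between clusters 3 and 4, taken as *TrkC* neurons other than proprioceptors, and clusters 1 and 2 (1.18% of 4912 genes called) or between clusters 1 and 2 (2.65% called). Neither did any pass at an unadjusted p under 0.05 in edgeR, and the largest difference, -0.71 for *Nefh* in cluster 1 against cluster 2, had an SE of 0.54. *Prph* was at 1703 and 1340 CPM in cluster 1 and 1248 and 1096 CPM in cluster 2 (0.30, adjusted p = 0.655). *Nefh* was at 15.4 and 34.0 CPM in cluster 1, 37.9 and 44.1 CPM in cluster 2, and 47.3 and 64.9 CPM in cluster 3. These values rest on 9, 40 and 28 UMIs in all, and what size of difference could be detected at this depth was not tested.

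Among the neurons of one cluster and plate, the 3 neurofilament subunits varied together in the median set of p0, p12 and the adult (median r of 0.46 to 0.74 for each pair and stage), but at e14.5 the pairs with *Nefh* did not. Over 23 sets of at least 8 neurons thinned to equal depth, Pearson's r across neurons had a median of 0.61 for *Nefl* and *Nefm* (positive in 23 of 23 sets), 0.52 for *Nefl* and *Nefh* (18 of 23) and 0.49 for *Nefm* and *Nefh* (17 of 23). In the 6 sets of e14.5, where *Nefh* UMIs were few, the medians were 0.32, -0.22 and -0.08, and the sets of negative r for *Nefl* and *Nefh* were all among them. Every pair with *Ina* or *Prph* had a median between -0.06 and 0.15 over all sets. By stage, *Ina* with the subunits had medians of 0.10 to 0.38 at p0 (2 sets) and 0.12 to 0.33 at p12. At e14.5 and in the adult these medians lay between -0.04 and 0.17. Neurons of a set share a library, and the level of *Nefl*, *Nefm* and *Nefh* in a neuron (log2(CPM + 1), not thinned) had a median r with its depth of 0.31, 0.24 and 0.27 over all sets, against 0.08 for *Ina* and 0.00 for *Prph*. By stage, in the same order of subunits, these medians were 0.09, 0.04 and 0.16 at e14.5, 0.55, 0.64 and 0.82 at p0, 0.62, 0.53 and 0.52 at p12, and 0.37, 0.21 and 0.25 in the adult. The levels thus moved with depth most at p0 and p12, and the part of depth in the correlations between subunits was not tested. The variance of the thinned UMIs over their mean, which is 1 for counting alone, had a median over adult sets of 4.69 for *Nefm*, 3.99 for *Nefl*, 2.96 for *Nefh*, 1.47 for *Ina* and 0.918 for *Prph*. In the median adult set, *Prph* thus varied among neurons no more than counting would give.

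Over the 18 adult cluster sums, the other two subunits were among the 3 closest genes to each subunit. *Nefh* was the nearest gene to *Nefl* (r = 0.96), followed by *Tesc* (0.94) and *Nefm* (0.90), and for *Nefm* the nearest were *Nefh* (0.92), *Kank4* (0.91) and *Nefl* (0.90). For *Nefh* they were the other two subunits and *Lrrc49* (0.92). *Ina* was nearest to *Gprasp2* (0.89), *Celf4* (0.88) and *Rgs4* (0.87), and *Prph* to *Pappa* (0.88), *Mapk3* (0.85) and *Tshz2* (0.80). The sums share plates and depths, and these values only describe likeness among 6778 genes. Over the 13 plates of all stages, where many genes follow age, the nearest were *Vdac1* (0.98) for *Nefl*, *Gmfb* (0.96) for *Nefm*, *Gpr158* (0.99) for *Nefh*, *Tet1* (0.97) for *Ina* and *Ccnl2* (0.97) for *Prph*.

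Other genes of neurofilament biology moved between stages in part, beside the 27.8% (p0 against e14.5), 18.1% (p12 against p0) and 14.1% (adult against p12) of all genes called. Of 10 further intermediate filament and linker genes, 7 could be tested. *Dst*, the linker between filaments and other cytoskeletal polymers, rose from p0 to p12 (log2 1.05, adjusted p = 0.00245) and to the adult (0.60, adjusted p = 0.0165), the only one called in either step. Between e14.5 and p0, *Synm* (synemin) rose (1.16, adjusted p = 0.000790) and 3 of 7 fell, among them *Plec* (plectin, -2.22, adjusted p = 0.00436) and *Vim* (vimentin, -1.54, adjusted p = 0.0272). The median differences of this list were 0.52 (adult against p12), 0.48 and -0.62, against 0.04, 0.02 and 0.01 over all tested genes.

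Of 12 kinases and phosphatases that act on neurofilament tails, 6 rose and 1 fell between e14.5 and p0, 1 rose and 1 fell between p0 and p12, and 0 were called between p12 and the adult, where the shares over all genes were 27.8%, 18.1% and 14.1%. The largest of the early rises were those of *Mapk10* (1.35, adjusted p = 0.00147) and *Gsk3a* (1.30, adjusted p = 0.00318), while *Gsk3b* fell (-2.25, adjusted p = 0.0233). Between p0 and p12, *Csnk1d* rose (1.41, adjusted p = 0.000246) and the phosphatase subunit *Ppp2ca* fell (-0.81, adjusted p = 0.00741). The median differences from the earliest to the latest step were 0.88, 0.33 and 0.15.

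Of 7 axonal transport motors, 0 were called between e14.5 and p0, 3 rose between p0 and p12 and 2 between p12 and the adult, beside the same shares. *Kif5b*, a kinesin heavy chain, rose in both later steps (0.84, adjusted p = 0.00332, and 0.92, adjusted p = 0.000440), *Myo5a* from p0 to p12 (0.86, adjusted p = 0.0263) and *Dync1h1*, the dynein heavy chain, from p12 to the adult (0.55, adjusted p = 0.0402). The list's medians were 0.31, 0.45 and 0.43.

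Among chaperones of filament assembly, the small heat shock genes *Hspb1* (4.08, adjusted p = 0.0264) and *Hspb8* (1.49, adjusted p = 0.000539) rose from e14.5 to p0, *Hspb8* again to p12 (0.64, adjusted p = 0.0363) and *Hspb1* to the adult (2.58, adjusted p = 0.0258).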

How the data were processed

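Reads of single neurons had been aligned by the authors with STAR to mm10 (GRCm38) with the NCBI annotation, separated by well barcode and collapsed by UMI. The deposited values are whole-number UMI counts per gene and well, not normalized, beside the authors' annotation of the kept neurons, their plates and their clusters. UMI totals and gene numbers equalled the annotation in all 586 neurons. The same 96 well barcodes served every plate.

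Between stages, the UMIs of all kept neurons of a plate were added up, and between clusters those of each cluster's neurons per plate (2 or more). The quasi-likelihood F-test of edgeR 4.0.16 (R 4.3.3), with TMM and filterByExpr, gave the log2 fold changes, from sums and not from mean CPM. It is the source of every adjusted p for which no other test is named, adjusted by Benjamini-Hochberg over all genes tested and called under 0.05. A stage fit used all 13 plates. Ratios of summed UMIs were compared by two-sided exact permutation of plates (scipy 1.17.1), within plates by sign flips. Thinning drew 7000 UMIs per neuron. Likeness was Pearson's r of log2(CPM + 1). Intervals cover counting error only.

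Cluster sums of one plate share a sorting plate by the labels, and for this reason the plate was used as a block, as an alternative, because the study's methods name no block. Deviations of adult sums from their cluster means had a median correlation of 0.09 on the same plate and -0.02 between plates. At the other stages each cluster lay on 2 plates, where centring makes the deviations equal and opposite, and the check says nothing.

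The members, the lists and the tests were chosen with earlier results of these data known. Named are the 5 members, in each list the 2 called genes of largest rise and the 2 of largest fall per stage comparison, and the 3 genes most like each member (of which the first is given over plates), predicted genes skipped. Some of the listed genes, and the counts and medians of the lists of filament turnover and of RNA-binding proteins that hold them, are not reported here. Alternatives were DESeq2 1.42.0, the use of its size factors by edgeR, all genes without a filter, limma 3.58.1 on mean log2(CPM + 1), thinned neurons, other minimum numbers of neurons, plate sets, and each plate left out. Splitting the p12 plates into pairs and taking the members out of the library totals were chosen after seeing the data. The fits were tested on simulated counts. Promoter windows and positions are from RefSeq GRCm38.p6. Windows for *Ina* and *Prph* were at hand, and *Nefl*, *Nefm* and *Nefh* were not analysed here in this respect.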

Additional observations from a re-analysis of the deposited data

Results flagged for a closer look

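Within 1 group, the sample farthest from the others was called out where its gap exceeded the 95% Dixon limit, which chance alone passes in about 5% of groups. It did so in 2 of 40 groups. *Nefl* in adult cluster 3 was at 6786 CPM on replicate 2, from 2 neurons, against 3484 to 3623 CPM on the other plates. *Ina* in the adult neurons without a numbered cluster was at 346 CPM on replicate 2, against 152 to 201 CPM on the others.

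The adult plates hold 242 further wells with at least 2000 genes that the annotation leaves out. Their mean levels over plates were 3153 CPM for *Nefl*, 3904 CPM for *Nefm*, 3068 CPM for *Nefh*, 283 CPM for *Ina* and 841 CPM for *Prph*. Plate means of *Nefl* in these wells (2749 to 3561 CPM) lay below all those of the kept neurons (4035 to 5552 CPM), and those of *Ina* (252 to 319 CPM) above them (149 to 251 CPM). What these wells hold is not stated in the sources used here.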

How the results depend on the processing

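The falls of *Ina* and *Prph* from p12 to the adult, the rise of *Nefh* from p0 to p12, and those of *Nefl* and *Nefh* from e14.5 to p0 passed under all 23 alternatives.

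Adult against p12: *Nefh* passed with numbered adult clusters only (0.62). With p12 replicates 3 and 4 alone, 4 members and 25.9% of all genes were called (*Nefl* 0.50 and *Nefh* 0.85 beside *Ina* and *Prph*), and *Nefm*, at 0.047, was not. Leaving out 1 plate moved *Nefl* between -0.26 and 0.13 and *Nefh* between 0.41 and 0.65, past the threshold without p12 replicate 1 (0.65) or adult replicate 5 (0.59). p12 against p0: 2 members were called by DESeq2 (*Nefm* 0.71, with 16.6% of all genes) and without a filter (*Nefm* 0.75, 8.53%), 3 with p12 replicates 1 and 2 alone (19.6%, *Nefl* 0.80, *Nefm* 0.99), and 1 to 2 with a plate left out (*Nefm* 0.62 to 0.86, *Prph* -0.15 to 0.036). *Nefl* was at -0.032 with neurons weighted equally and -0.20 with p12 replicates 3 and 4 alone. p0 against e14.5: *Ina* was called in thinned neurons (-0.95). *Prph* turned sign without a filter (0.023), without e14.5 clusters 3 and 4 (0.0043), with neurons weighted equally (0.013) and with plates left out (-0.11 to 0.058).

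The plate as a replicate block raised the members called to 5 (adult clusters 1 and 5 against 2 to 4), 4 (cluster 1 against 5), 3 (cluster 4 against 2) and 2 (p0, 70 genes called in all). It called 781, 712 and 53 genes in the adult comparisons against 415, 351 and 10 without it. The block could not be fitted across all p12 clusters, which lie on separate plates. In the plate sets alone, 2 members passed between clusters 1 and 5 in either set (3.27% of all genes in replicates 1 and 2, 4.08% in replicates 3 to 5), and 3 between clusters 4 and 2 in replicates 1 and 2 (0.775%). Leaving out adult replicate 3, 4 or 5 left at most 3 members called for any difference, beside 5.48%, 5.79% and 7.29% of all genes. Without adult replicate 1 or 2, clusters 2 and 4 had 1 sum each, and without replicate 1 fewer members and genes were called. At p12 (cluster 1 against 4), up to 4 members were called without replicate 1 (2.33% of all genes) or 2 (2.53%). Without p12 replicate 3 or 4, both clusters had 1 sum each and the subunits no longer passed. At p0, DESeq2 called 0 members (0.613% of all genes), and 2 were called without a filter (0.79%) and in thinned neurons (1.07%), where *Nefh* was at 0.52 and *Prph* at -0.10. At e14.5, uncalled values turned sign: clusters 3 and 4 against 1 and 2 in *Nefm* (0.030 by DESeq2, 0.0035 thinned) and *Nefh* (-0.034 without a filter), cluster 1 against 2 in *Nefm* (0.011 by DESeq2, 0.0049 with sums of at least 1 neuron), *Nefl* (0.014, thinned) and *Ina* (-0.11, thinned).

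Of the ratios between adult and p12, p12 replicates 1 and 2 alone gave 0.78 (*Nefh* over *Nefl*), 0.82 (*Nefh* over *Nefm*) and -0.77 (*Ina* over *Nefl*), all with exact permutation p adjusted to 0.0794. Replicates 3 and 4 alone brought *Nefm* over *Nefl* (-0.46) and *Prph* over *Nefl* (-1.02) past the threshold. *Ina* over *Nefl* was at -1.03 when thinned (adjusted permutation p = 0.0529), and *Nefm* over *Nefl* between -0.34 and -0.17 with a plate left out. Between p12 and p0, *Ina* over *Nefl* turned to 0.13 (neurons weighted equally), 0.47 (thinned) and 0.55 (p12 replicates 3 and 4 alone), and lay between -0.35 and 0.15 with a plate left out, and *Prph* over *Nefl* turned to 0.10 (p12 replicates 3 and 4 alone). Between p0 and e14.5, the alternatives gave 2.10 to 3.89 for *Nefh* over *Nefm* and 0.94 to 2.76 for *Nefh* over *Nefl*. In 12 of 20 alternatives fewer than 2 of the 3 genes most like a member were shared with those given. The causes were not tested. With 2 plates at e14.5 and p0, and few *Nefh* UMIs at e14.5, small differences there may have been missed.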
